A study of Mus musculus with 9 samples.

Results

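The genes described here lie beside Apex1, the mouse gene that encodes the DNA repair endonuclease Ape1, on mouse chromosome 14. They are Ttc5, Ccnb1ip1, Tep1, Osgep, Tmem55b, Pnp, Ang and Rnase4, 8 genes picked by name for their position. On the arrays 7 of the 8 carried a symbol, on 8 of 41345 transcript clusters (sets of probes read as 1 transcript), because Tmem55b stood on 2 clusters, 17299542 and 17306071. No cluster carried the symbol Ang, which is not analysed here, and 0 clusters had an annotation that names Apex1. The annotation cells end after 87 characters, in the 8 clusters of these genes and in 23782 clusters altogether, so that a further transcript named beyond that point would not be seen. Whether the probes of 17299542 read Apex1, with or without Tmem55b, was not tested.

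Total RNA came from mouse embryonic fibroblasts (MEFs), connective tissue cells of the embryo, grown as 3 lines called human APE1, mouse Ape1 and vector control, with 3 dishes and 3 arrays each. Per the labels, all cells are male and isogenic to C56BL/6, and per the design text the starting cells are mApe1-/- and hAPE1TG, without either mouse Ape1 copy and with a human APE1 transgene, at 0.2% of the Ape1 level of normal MEFs. The controls share this background, and a note in the authors' deposited table gives the vector line an APE1 level about 500 times below that of the human APE1 and mouse Ape1 lines. The sources used here do not give what drives the introduced genes, how many clones each line holds or how far the deletion of Ape1 reaches. Each group is 1 line, so p-values measure the spread between dishes of 1 line, and line and group cannot be told apart.

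Ape1 cuts DNA where a base has been lost, a step of base excision repair. Its neighbours have unrelated tasks. Osgep is the catalytic subunit of the KEOPS complex, which helps to make the tRNA modification t6A. Tmem55b, now called Pip4p1, is a phosphoinositide phosphatase of the lysosomal membrane that takes part in lysosome transport. Pnp, purine nucleoside phosphorylase, splits purine nucleosides in the salvage pathway. Ttc5 is a p300 cofactor that also takes part in the feedback of tubulin on its own mRNA. Tep1 is a component of the telomerase and vault particles. Ccnb1ip1 is a ubiquitin ligase of meiotic crossing over, and Rnase4 and Ang are secreted ribonucleases of the RNase A family. In the RefSeq gene order of chromosome 14, Osgep stands just before Apex1 and Tmem55b just after it.

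Osgep and Apex1 start next to each other on opposite strands. Their RefSeq promoter windows (GRCm38.p6, 250 bases before to 50 after the start) share 155 of 300 bases, which is why the Osgep window is shown. It lies on the minus strand at chr14:50924844-50925143. The Tmem55b window, on the minus strand at chr14:50930800-50931099, is shown as that of the neighbour on the other side. Capitals mark the E-box CACGTG, a palindrome that reads alike on both strands.
Osgep: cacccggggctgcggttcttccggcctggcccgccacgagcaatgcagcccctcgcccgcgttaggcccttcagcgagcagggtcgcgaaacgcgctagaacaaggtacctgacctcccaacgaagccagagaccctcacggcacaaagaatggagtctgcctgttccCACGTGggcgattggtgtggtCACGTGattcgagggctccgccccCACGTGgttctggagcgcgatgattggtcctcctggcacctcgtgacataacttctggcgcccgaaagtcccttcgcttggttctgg
Tmem55b: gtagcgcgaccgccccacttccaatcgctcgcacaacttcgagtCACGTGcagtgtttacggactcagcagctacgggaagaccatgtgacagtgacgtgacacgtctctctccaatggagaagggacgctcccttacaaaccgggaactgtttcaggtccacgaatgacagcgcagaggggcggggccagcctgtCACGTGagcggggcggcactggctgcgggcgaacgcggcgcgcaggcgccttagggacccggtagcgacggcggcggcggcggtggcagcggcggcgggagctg
The Osgep window held 3 E-boxes, all 3 inside the bases shared with the Apex1 window, and the Tmem55b window held 2. Of 32851 RefSeq promoter windows of this length, 7.15% held at least 1, 0.594% at least 2 and 0.0883% at least 3. These shares were not adjusted for base content. The median window was 52.7% G and C, against 63.3% for Osgep and 66.3% for Tmem55b. Other motifs were counted too. CCAAT stood 2 times in both windows (11.7% of all windows held at least 2). GGGCGG stood 1 time in Osgep (35.7% held at least 1) and 3 times in Tmem55b (10.7% held at least 3). The windows of Pnp, Ttc5, Ccnb1ip1, Rnase4 and Ang held 0 E-boxes. No measurement of binding is at hand, and a match is a description of the letters alone.

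Rnase4 and Ang share a promoter window letter for letter, on the plus strand at chr14:51090827-51091126, and it is shown because Rnase4 is the only gene of this pair with a cluster on the arrays.
Rnase4 and Ang: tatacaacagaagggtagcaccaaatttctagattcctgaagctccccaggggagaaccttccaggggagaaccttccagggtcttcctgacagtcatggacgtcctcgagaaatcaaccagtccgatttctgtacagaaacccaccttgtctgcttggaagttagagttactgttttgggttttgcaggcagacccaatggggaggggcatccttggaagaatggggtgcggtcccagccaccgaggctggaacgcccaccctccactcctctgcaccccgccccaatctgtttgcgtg
A second RefSeq start of Rnase4 has a window of its own.

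The 9 arrays had medians between 5.64 and 5.75 on the log2 scale and 25th percentiles between 4.27 and 4.36. Across clusters, which are not independent, arrays correlated at r = 0.990 to 0.993 within lines (9 pairs) and at 0.977 to 0.987 between lines (27 pairs). Of 10 fibroblast markers, 9 lay above the median of all clusters, among them Vim, Fn1 and Col1a1, while Lum lay below the 25th percentile on all 9 arrays. In human APE1 5 of the 10 fell (list median −0.26), and in mouse Ape1 6 fell and 2 rose (list median −0.24), each against vector control. Of all genes above the median level, 11.4% rose and 15.4% fell in human APE1, and 16.5% rose and 16.7% fell in mouse Ape1. The markers were not tested against these shares. Of the 6 epithelial, 5 endothelial and 5 macrophage markers, 2, 2 and 1 lay above the median, and Ptprc, the pan-leukocyte marker, lay below the 25th percentile on all 9 arrays. Of these markers 1 passed, Cdh5 of endothelium, which averaged 5.77 ± 0.086 in mouse Ape1 against 5.45 ± 0.074 in vector control (SD, n = 3 each, adjusted p = 0.0223) and stood 0.40 lower in human APE1 than in mouse Ape1 (adjusted p = 0.00975). The first of these calls was lost without mouse Ape1 replicate 1 or 3, without vector control replicate 2 or 3, or with array medians subtracted (adjusted p = 0.0566 to 0.0814). The part of these markers in the values below was not tested. In such cultures fewer cells that make an RNA and less of it per cell cannot be told apart.

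Of the 8 clusters, 1 differed between the lines in the F-test of all 3 groups, against 20.4% of all clusters. It was cluster 17299542, which carries the symbol Tmem55b but whose target is uncertain, and it was close to 1 log2 unit higher in mouse Ape1 than in both other lines. The clusters of Osgep, Pnp, Ttc5, Ccnb1ip1, Tep1 and Rnase4 and the other Tmem55b cluster did not pass in any of the 3 comparisons. A cluster is called a rise or a fall where limma's two-sided test gave an adjusted p under 0.05 over all 41345 clusters.

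**Figure D1:**
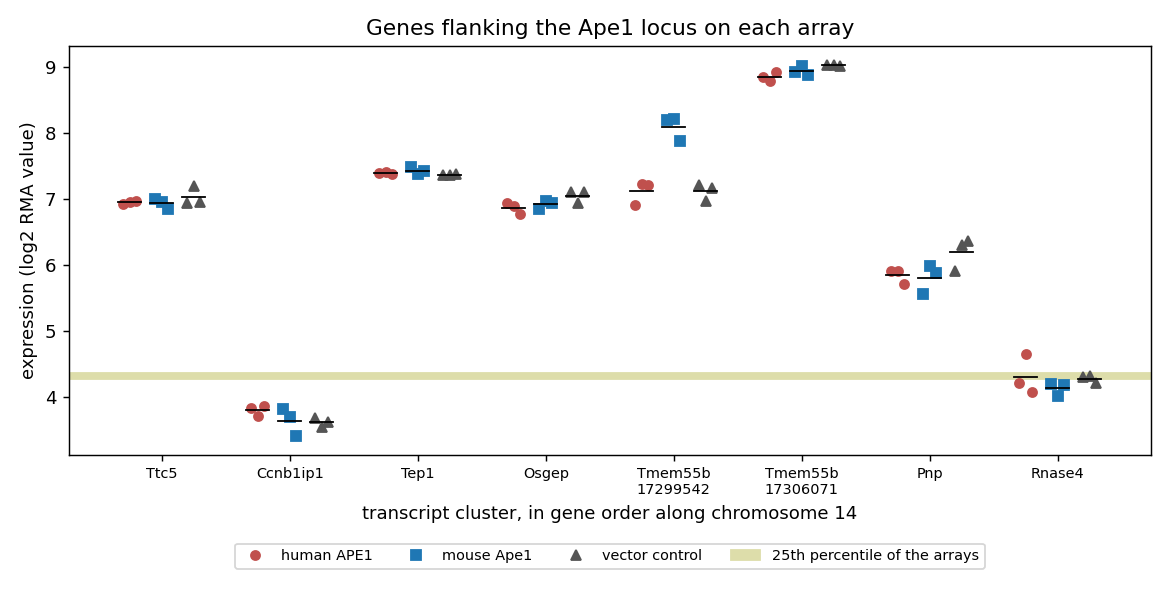
Expression on the log2 RMA scale (y axis) of the 8 clusters in gene order along chromosome 14 (x axis), 1 point per array for human APE1 (circles), mouse Ape1 (squares) and vector control (triangles), with bars at the group means and a band at the 25th percentile of the arrays. The mouse Ape1 arrays stand apart in cluster 17299542 (7.88 to 8.22), and all Ccnb1ip1 values lie below the band.

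Cluster 17299542, annotated Tmem55b, read 6.91, 7.22 and 7.22 on the human APE1 arrays. On the mouse Ape1 arrays it read 8.19, 8.22 and 7.88. On the vector control arrays it read 7.21, 6.98 and 7.17. All 3 mouse Ape1 values lay above all 6 others, and the human APE1 and vector control values overlapped.

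The difference of cluster 17299542 between mouse Ape1 and vector control was 0.98 (8.10 ± 0.19 against 7.12 ± 0.12, SD, n = 3 each, SE 0.13, adjusted p = 0.00155). That is 1.97-fold, with a 95% interval of 1.61 to 2.41. Of all clusters, 2.31% passed this comparison with a change of at least that size in either direction, against 1.48% in human APE1 minus vector control and 1.64% in human APE1 minus mouse Ape1. Between human APE1 and mouse Ape1 the difference was −0.98 (SE 0.13, adjusted p = 0.00171). Human APE1 and vector control had the same mean, 7.12, with a 95% interval of the difference of −0.29 to 0.29.

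Tmem55b cluster 17306071 did not pass in any comparison. It read 8.85, 8.78 and 8.93 in human APE1. The mouse Ape1 arrays gave 8.93, 9.02 and 8.89. The vector control arrays gave 9.03, 9.04 and 9.01. Vector control was the tightest group here, with all 3 values above those of human APE1 and overlapping with those of mouse Ape1. The log2 differences were −0.17 for human APE1 minus vector control (95% interval −0.31 to −0.03, adjusted p = 0.135) and −0.08 for mouse Ape1 minus vector control (−0.22 to 0.07, adjusted p = 0.475). Human APE1 minus mouse Ape1 gave −0.09 (−0.24 to 0.05, adjusted p = 0.447).

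The authors' deposited table, whose group means come from another summary of the arrays, holds the same contrast at a larger size. There cluster 17299542 had log2 means of 6.78 in human APE1, 9.16 in mouse Ape1 and 6.86 in vector control. In the authors' deposited table the differences were 2.30 for mouse Ape1 minus vector control and −2.37 for human APE1 minus mouse Ape1. The authors' deposited table of clusters that passed their adjusted 3-group test holds 7115 clusters, where the whole series has 41345. Of the 8 clusters of these genes it holds 1, cluster 17299542, with an adjusted p of 0.000397. Both summaries use the same arrays, so they are not independent. For cluster 17306071 the authors' deposited table gave means of 8.28 in human APE1, 8.50 in mouse Ape1 and 8.53 in vector control, and an unadjusted p of 0.167 for the 3 groups.

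**Figure D2:**
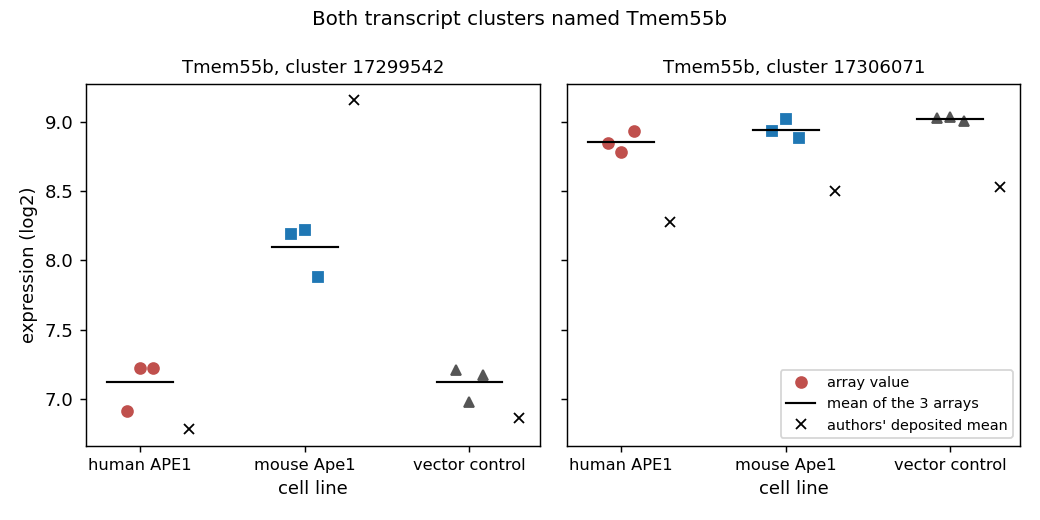
Expression (y axis, log2) of both clusters named Tmem55b in human APE1, mouse Ape1 and vector control (x axis), with 1 point per array, bars at the mean of 3 arrays and crosses at the authors' deposited group means. Cluster 17299542 is higher in mouse Ape1 by 0.98 in the array values and by 2.30 in the authors' means, while cluster 17306071 differs by −0.08 and −0.03.

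The numbers of both clusters fall into different runs of the array's numbering. Cluster 17299542 stands between Parp2 (17299518) and Pnp (17299551), and all 20 of the nearest clusters of chromosome 14 genes with a RefSeq strand belong to genes on the plus strand. Cluster 17306071 follows Osgep (17306054) and precedes Rnase9 (17306082), and all 20 of its nearest clusters belong to genes on the minus strand. In RefSeq, Tmem55b lies on the minus strand, while Apex1 lies on the plus strand between Parp2 and Pnp. The sources used here do not give which transcripts the probes of 17299542 read. The name Tmem55b is therefore uncertain for this cluster, and whether its 0.98 in mouse Ape1 is a level of Apex1, of Tmem55b or of both was not tested.

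Osgep, the head-to-head neighbour of Apex1, did not pass in any comparison. It read 6.94, 6.89 and 6.77 in human APE1. In mouse Ape1 it read 6.85, 6.98 and 6.94. In vector control it read 7.11, 6.94 and 7.10. The order of the means was human APE1, mouse Ape1 and vector control from low to high, and values of neighbouring lines overlapped. Against vector control the log2 difference was −0.18 in human APE1 (95% interval −0.35 to −0.01, adjusted p = 0.178) and −0.13 in mouse Ape1 (−0.30 to 0.04, adjusted p = 0.320). Human APE1 minus mouse Ape1 was −0.06 (−0.23 to 0.12). The intervals against vector control reach a fold of 0.782 at the lowest. In the authors' deposited table the Osgep means were 6.97 in human APE1, 7.17 in mouse Ape1 and 7.15 in vector control, so the small mouse Ape1 difference had the other sign there (0.02).

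For the pathway lists that follow, the background over all genes above the median level was 11.4% higher and 15.4% lower in human APE1, and 16.5% higher and 16.7% lower in mouse Ape1, each against vector control. Over all genes, dim ones included, 6.58% were higher and 9.13% lower in human APE1, and 9.75% and 10.2% in mouse Ape1. No list was tested against either background. The partners of Osgep were followed through 5 other genes of KEOPS and t6A synthesis with a cluster (Gon7 had none). In human APE1 against vector control 1 rose, Trp53rk, the KEOPS kinase, and 4 did not pass. Trp53rk averaged 6.77 ± 0.14 in human APE1 against 6.25 ± 0.20 in vector control (SD, n = 3 each, adjusted p = 0.022), a call lost without replicate 1 or 2 of human APE1 or replicate 1 or 3 of vector control, or with 2 groups in the fit (adjusted p = 0.0687 to 0.0803). In mouse Ape1 against vector control 0 of the 5 passed (1 at an unadjusted p under 0.05, against 28.4% of all clusters). The list medians were 0.00 in human APE1 and 0.22 in mouse Ape1, beside 0.02 and 0.00 over all clusters. Tprkb, a KEOPS subunit, was higher in human APE1 than in mouse Ape1 by 0.24 (adjusted p = 0.0332), and 9 of 15 refits lost that call.

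Against vector control, Pnp had the largest differences of the clusters that did not pass. It read 5.91, 5.91 and 5.72 in human APE1. The mouse Ape1 dishes gave 5.56, 5.99 and 5.89. The vector control dishes gave 5.91, 6.30 and 6.36. Of the vector control arrays, 2 were the highest of all 9. The human APE1 values all lay below those of vector control, with the nearest alike to the second decimal, and the mouse Ape1 values overlapped with both. The log2 difference from vector control was −0.34 in human APE1 (95% interval −0.69 to 0.00, adjusted p = 0.203) and −0.38 in mouse Ape1 (−0.72 to −0.04, adjusted p = 0.134). The human APE1 and mouse Ape1 lines differed by 0.04 (−0.31 to 0.38). Without vector control replicate 1, its lowest array, the mouse Ape1 difference was −0.52 and passed (adjusted p = 0.0481). Over all 15 refits that difference ran from −0.52 to −0.26 (adjusted p = 0.0481 to 0.344). The authors' deposited table gave vector control over mouse Ape1 a ratio of 1.49 (unadjusted p = 0.0582). Vector control over human APE1 was 1.33 there (unadjusted p = 0.144).

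Of 13 other purine salvage genes, 1 rose and 1 fell in human APE1 and 2 fell in mouse Ape1, each against vector control (list medians −0.11 and −0.08). Of the 13, 9 lay above the median of all clusters and 2 below the 25th percentile on all arrays. Pnp2, the tandem relative of Pnp, lay below the 25th percentile on all 9 arrays, and whether its probes share signal with Pnp was not tested. Ampd3, an AMP deaminase, averaged 8.59 ± 0.020 in human APE1 and 7.38 ± 0.061 in mouse Ape1, against 7.84 ± 0.048 in vector control (SD, n = 3 each). Ampd3 rose by 0.75 in human APE1 (adjusted p = 0.000151) and fell by 0.45 in mouse Ape1 (adjusted p = 0.00139). Human APE1 stood 1.21 above mouse Ape1, and all 3 calls held in each of 15 refits.

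Ttc5 read 6.93, 6.95 and 6.97 in human APE1. In mouse Ape1 it read 7.01, 6.95 and 6.85. In vector control it read 6.94, 7.19 and 6.96. A single vector control array was higher than the rest, and all groups overlapped. The differences from vector control were −0.08 in human APE1 (95% interval −0.27 to 0.11, adjusted p = 0.614) and −0.10 in mouse Ape1 (−0.28 to 0.09, adjusted p = 0.498). The authors' deposited table gave Ttc5 larger differences, −0.27 in human APE1 (unadjusted p = 0.0185) and −0.17 in mouse Ape1 (unadjusted p = 0.0817). Of 6 other genes of the p300, JMY and p53 group, 3 fell in human APE1 and 4 in mouse Ape1, and 0 rose (list medians −0.16 and −0.28). Jmy, a p300 partner, fell by 0.48 in human APE1 (adjusted p = 0.00534), and Trp53, the gene of p53, fell by 0.36 in mouse Ape1 (adjusted p = 0.00632). Of 10 genes of tubulins and their feedback, 1 rose and 1 fell in human APE1, and 2 rose and 4 fell in mouse Ape1 (list medians −0.01 and −0.07). Tubb2a, a beta-tubulin, fell in mouse Ape1 (7.64 ± 0.091 against 8.84 ± 0.22 in vector control, SD, n = 3 each, adjusted p = 0.000474). Tubb2b, a close relative whose probes may share signal with Tubb2a, fell by 0.77 (adjusted p = 0.000442).

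Tep1 was the steadiest of the clusters, with a range of 0.12 over all 9 arrays. It read 7.40, 7.42 and 7.38 in human APE1. In mouse Ape1 it read 7.49, 7.38 and 7.42. In vector control all 3 arrays read 7.37. Both lines lay just above vector control with no overlap, but by a gap much smaller than the SE of the differences (0.052). The lowest values were 7.385 in human APE1 and 7.378 in mouse Ape1, against a highest of 7.374 in vector control. The differences were 0.03 in human APE1 (95% interval −0.09 to 0.15, adjusted p = 0.801) and 0.06 in mouse Ape1 (−0.06 to 0.18, adjusted p = 0.519). The sign depended on the processing. With array medians subtracted the human APE1 difference was −0.02, and over all refits the mouse Ape1 difference ran from −0.04 to 0.09. In the authors' deposited table the Tep1 differences were 0.12 in human APE1 (unadjusted p = 0.0898) and 0.18 in mouse Ape1 (unadjusted p = 0.0263). Of 8 other vault and telomerase genes, 0 passed in human APE1 against vector control. There 3 of the 8 reached an unadjusted p under 0.05 in limma's test, against 24.4% of all clusters. In mouse Ape1 1 rose and 1 fell (list medians −0.06 in both lines). Mvp, the major vault protein, fell by 0.52 in mouse Ape1 (7.35 ± 0.11 against 7.87 ± 0.037 in vector control, SD, n = 3 each, adjusted p = 0.00244). It stood 0.56 higher in human APE1 than in mouse Ape1 (adjusted p = 0.00202).

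Ccnb1ip1 lay below the 25th percentile on all 9 arrays and Rnase4 on 6 of 9, and neither reached an array median. As background, RMA compresses differences between such low signals. Ccnb1ip1 read 3.84, 3.71 and 3.86 in human APE1. Its mouse Ape1 values were 3.82, 3.70 and 3.41. Its vector control values were 3.69, 3.55 and 3.63. The human APE1 values lay above those of vector control, by 0.18 on average (95% interval −0.06 to 0.43, adjusted p = 0.354), and mouse Ape1 overlapped both. Of 7 other genes of meiotic crossing over, 1 fell in human APE1, and 1 rose and 1 fell in mouse Ape1 (list medians 0.01 and −0.13). Of the 7, 3 lay above the median of all clusters and 2 below the 25th percentile on all arrays. Mlh3, a mismatch repair protein, fell by 0.50 in human APE1 (adjusted p = 0.0191), a call lost without replicate 2 or 3 of human APE1 or of vector control (adjusted p = 0.0544 to 0.0665). It stood 1.27 lower in human APE1 than in mouse Ape1 (6.65 ± 0.11 against 7.91 ± 0.18, SD, n = 3 each, adjusted p = 0.000187).

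Rnase4 read 4.21, 4.65 and 4.07 in human APE1. The mouse Ape1 values were 4.21, 4.01 and 4.19. The vector control values were 4.30, 4.32 and 4.21. The human APE1 arrays spread most and overlapped with both other groups, and the mouse Ape1 arrays lay just below those of vector control, with the nearest alike to the second decimal. The differences were 0.03 for human APE1 minus vector control (95% interval −0.29 to 0.35) and −0.14 for mouse Ape1 minus vector control (−0.46 to 0.18, adjusted p = 0.565). The authors' deposited table gave Rnase4 differences of 0.08 and −0.27 (unadjusted p = 0.650 and 0.169). Of 19 other genes of the RNase A family and its inhibitor, 0 passed against vector control in either line, where limma's test called 11.8% and 16.2% of all clusters (list medians −0.02 in human APE1 and 0.00 in mouse Ape1). At an unadjusted p under 0.05 there was 1 in each line, against 24.4% of all clusters in human APE1 and 28.4% in mouse Ape1. Of the 19, 9 lay below the 25th percentile on all arrays. Rnh1, the ribonuclease inhibitor, stood 0.39 lower in human APE1 than in mouse Ape1 (9.72 ± 0.082 against 10.11 ± 0.083, SD, n = 3 each, adjusted p = 0.00678).

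Beside Tmem55b, 13 other genes of lysosome positioning were measured. In human APE1 against vector control 2 rose and 2 fell, and in mouse Ape1 3 rose and 2 fell (list medians 0.08 and −0.03). Bloc1s1, a subunit of the complexes that shape and move lysosomes, rose in both, by 0.74 in human APE1 (adjusted p = 0.000366) and 0.46 in mouse Ape1 (adjusted p = 0.00287). Plekhm2, which links lysosomes to kinesin, rose by 0.39 in mouse Ape1 (adjusted p = 0.0041).

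The first comparison set human APE1 against vector control, where 0 of the 8 clusters passed and 11.8% of all clusters did, 5.4% higher and 6.35% lower (limma, adjusted p under 0.05). At an unadjusted p under 0.05 there were 3 (Osgep, Tmem55b cluster 17306071 and Pnp), all lower in human APE1. Of all clusters, 24.4% reached that level in either direction. Falls outnumbered rises over the whole chromosome too. Of all chromosome 14 genes with a cluster, 1.42% rose and 11.8% fell at an adjusted p under 0.05. Values of both lines did not overlap in 4 of 8, against 26.7% of all clusters. The differences ran from −0.34 to 0.18 with a median of −0.04, and their 95% intervals stayed within −0.69 and 0.43. The median was 0.02 over all clusters and −0.04 over all chromosome 14 genes with a cluster.

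The second comparison set mouse Ape1 against vector control, where 1 of the 8 clusters rose and 16.2% of all clusters passed, 9.09% higher and 7.07% lower. The count of 1 in 8, or 12.5%, is near the background. The other 7 differences ran from −0.38 to 0.06 with a median of −0.10 (−0.09 with all 8), and their intervals stayed within −0.72 and 0.27. The median was 0.00 over all clusters and −0.09 over all chromosome 14 genes with a cluster. Beside cluster 17299542, whose arrays did not overlap, 2 of these 7 did not overlap (Tep1 and Rnase4), against 33.1% of all clusters. Of the 7, 1 (Pnp) reached an unadjusted p under 0.05, against 28.4% of all clusters. Both comparisons use the same 3 vector control arrays, so their values are not independent.

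The third comparison set human APE1 against mouse Ape1. Of the 8 clusters, 1 fell, cluster 17299542, and 12.4% of all clusters passed, 4.91% higher and 7.5% lower. Its arrays were also the only ones of the 8 clusters that did not overlap, against 28.7% of all clusters. The other 7 differed by −0.09 to 0.18, with intervals within −0.31 and 0.50 and adjusted p of 0.432 to 0.940. At an unadjusted p under 0.05 there were 0 of the 7, against 23.6% of all clusters.

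**Figure D3:**
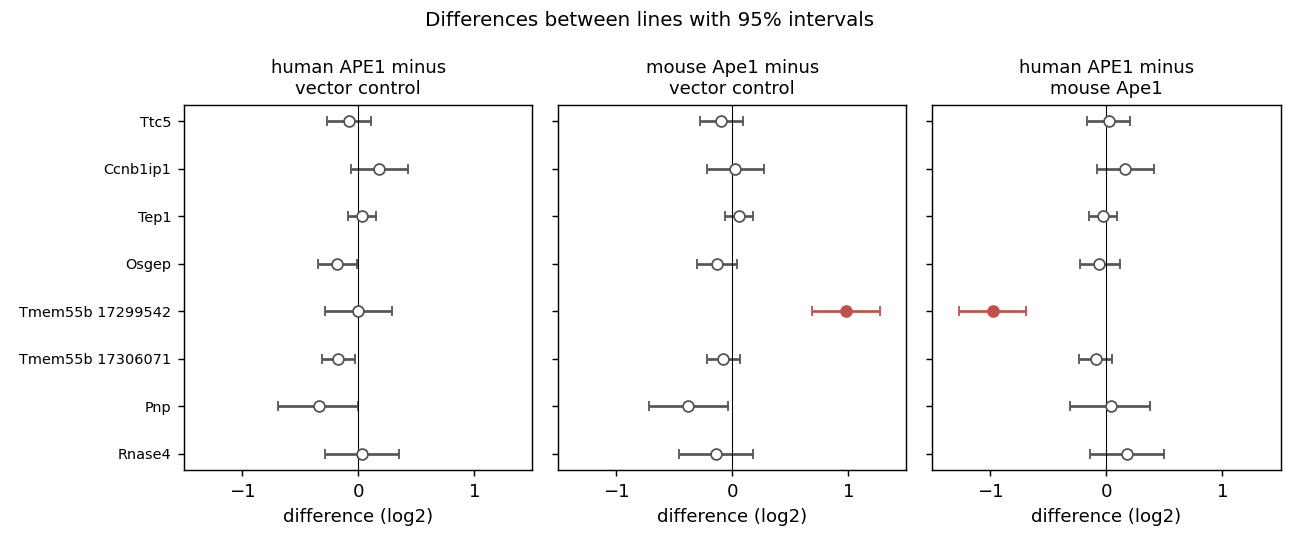
Log2 differences between lines (x axis) with 95% intervals for the 8 clusters (rows) in the 3 comparisons (panels), filled where limma's adjusted p was under 0.05. Cluster 17299542 passes at 0.98 and −0.98, and the other intervals stay within −0.72 and 0.50.

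Between these genes on the chromosome lie others that were not picked. RefSeq names 22 such symbols, Apex1 among them, and 9 had a cluster. Of these 9, 1 (11.1%) fell against vector control in both lines, Parp2, a poly(ADP-ribose) polymerase of single-strand break repair. Over all genes, 9.13% fell in human APE1 and 10.2% in mouse Ape1. Over all chromosome 14 genes with a cluster, 11.8% and 15.5% fell, so the count of 1 in 9 is near these shares. Parp2 averaged 9.48 ± 0.061 in human APE1 and 9.45 ± 0.11 in mouse Ape1, against 9.78 ± 0.052 in vector control (SD, n = 3 each). The differences were −0.30 (adjusted p = 0.0350) and −0.33 (adjusted p = 0.0193). The first call was lost with the replicate number as a block (0.0769) and without any 1 of human APE1 replicates 1 and 2, mouse Ape1 replicate 1 and vector control replicates 1 to 3 (0.0573 to 0.113). The second was lost without mouse Ape1 replicate 1 or 3 or vector control replicate 1 or 2 (0.0516 to 0.0623).

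Farther out, 0 of the 16 measured genes among the 20 proximal symbols passed in any comparison, and 10 of the 16 lay below the 25th percentile on all arrays. Of all clusters, 11.8% to 16.2% passed in the 3 comparisons. Of 12 measured among the 20 distal symbols, 1 (8.33%) fell in both lines, Gm5622 (−0.88 in human APE1 and −0.68 in mouse Ape1), a name on 4 clusters whose copy is uncertain. Over all genes, 9.13% and 10.2% fell. Over the whole chromosome, 436 genes lay above the median level. Of them 2.29% rose and 22.0% fell in human APE1, against 11.4% and 15.4% of 13492 such genes on all chromosomes. In mouse Ape1 4.13% rose and 28.2% fell, against 16.5% and 16.7%. The median difference of these chromosome 14 genes was −0.12 in human APE1 and −0.13 in mouse Ape1. All chromosomes gave −0.01 and −0.02. Osgep, at −0.18 and −0.13, lay near the chromosome 14 medians, but the flanking clusters that did not pass spread widely around them. In human APE1 they ran from −0.34 (Pnp) to 0.18 (Ccnb1ip1, a dim cluster). In mouse Ape1 they ran from −0.38 (Pnp) to 0.06 (Tep1). Both lines share the vector control arrays here too, and the part of the chromosome 14 shift in the values of single genes was not tested.

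**Figure D4:**
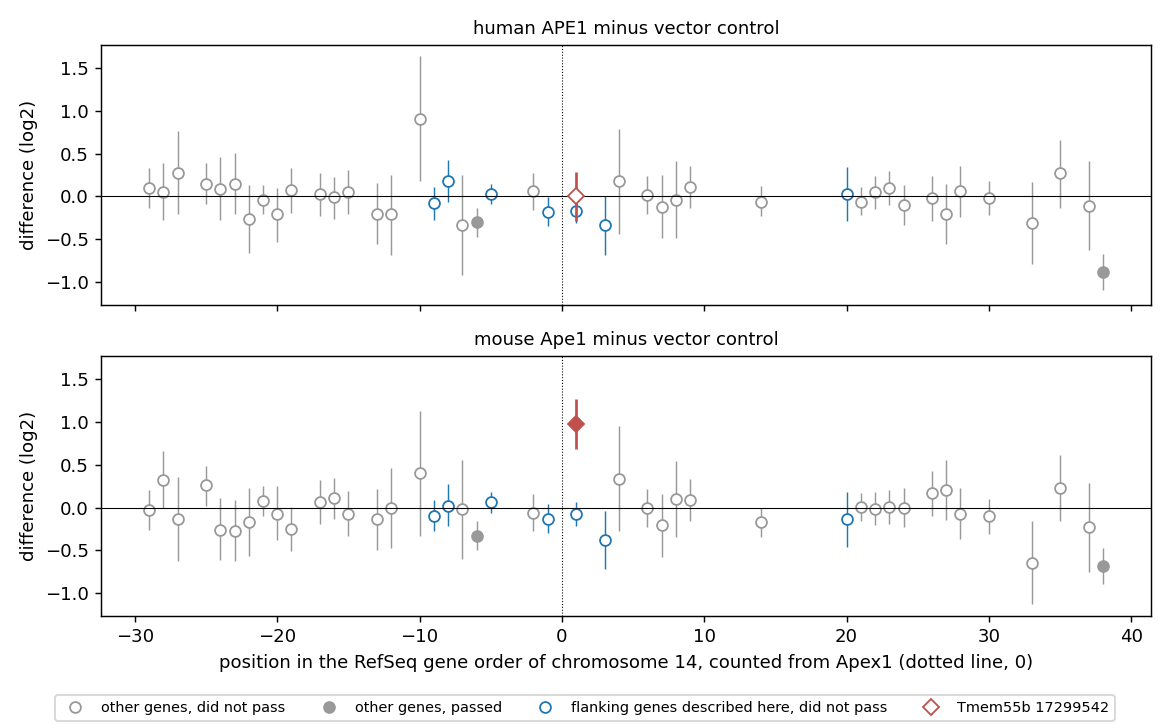
Differences on the log2 scale with 95% intervals (y axis) along the RefSeq gene order of chromosome 14 (x axis, counted from Apex1 at 0) for human APE1 (top) and mouse Ape1 (bottom), each minus vector control, for genes with a cluster. Filled points passed limma's test, the diamond is Tmem55b cluster 17299542 (0.98 in mouse Ape1), and Parp2 (−0.30 and −0.33) is the filled point nearest to the left of Apex1.

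Likeness of pattern was measured as Pearson's r over the 9 arrays, which fall into 3 lines, and is a description only. Among 13491 genes above the median level, the 3 most like Osgep were D430019H16Rik (0.933), Mgp (0.933) and Mterfd1 (0.925). The 3 most like Tep1 were Gpr21 (0.937), Gm19773 (0.927) and Med13 (0.906). Among the flanking genes, Pnp was most like Osgep (0.63), followed by Tmem55b cluster 17306071 (0.50), while cluster 17299542 had −0.17 and Tep1 −0.50.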

How the data were processed

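Per the labels, the deposited array values are log2 RMA expression values of core exons, made with Expression Console. RMA brings the arrays close to 1 distribution, so a shift of most genes at once is not measured. Small offsets remained, with array medians of 5.64 to 5.75. Subtracting these medians moved the Osgep difference in human APE1 minus vector control from −0.18 to −0.23. The submitters' processing notes name Partek without a version. The sources used here do not give the array design or genome build. Per the file headers, the authors' deposited tables hold group means on the log2 scale, linear ratios and p-values. Their differences correlated with those of the array values at r = 0.971 to 0.975 across clusters.

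Clusters were joined by transcript number and used without a filter. Differences were tested with limma 3.58.1 under R 4.3.3 (eBayes after lmFit, two-sided, 3 group means over 9 arrays, 6 residual and 2.07 prior degrees of freedom) and adjusted by Benjamini-Hochberg over 41345 clusters. The fit was tested on simulated data. The simulated shifts were larger than the differences of the flanking clusters that did not pass, so differences of that size were not covered. A gene on several clusters is represented by its brightest in lists and in the gene order. In lists the 2 largest passed changes could be named; all flanking genes are named, as are the 3 genes most like Osgep and the 3 most like Tep1. The number of arrays, 3 a group, limits the precision, with a median standard error of 0.106. Sequences and gene order are RefSeq's (GRCm38.p6), with promoter windows for 7 of the 8 genes. The flanking genes and the lists were chosen with earlier results of these data known, and the genes lying between them were added after seeing the data. Alternatives were medians subtracted, quantile normalization, a dim filter, a replicate block, 2 groups only, another prior, each array left out, and the authors' means. Python 3.11.15, scipy 1.17.1 and matplotlib 3.10.9 were used.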

Additional observations from a re-analysis of the deposited data

How the results depend on the processing

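Cluster 17299542, annotated Tmem55b, passed in mouse Ape1 minus vector control (0.90 to 1.09, adjusted p = 0.000826 to 0.0102) and in human APE1 minus mouse Ape1 (−1.09 to −0.87, adjusted p = 0.000859 to 0.0114) under all 15 refits of each. Its size is the uncertain part, since the authors' means give 2.30 and −2.37. To see whether replicate numbers pair the arrays, deviations from group means were correlated between arrays of different lines. Same-numbered arrays gave r of −0.075 to 0.1044, and other-numbered arrays gave a like spread, −0.1182 to 0.1185, so no pairing by number was seen. With the replicate block the cluster still differed by 0.98 and −0.98, and the counts over all clusters were 3747 for human APE1 minus vector control, 5569 for mouse Ape1 minus vector control, 4162 for human APE1 minus mouse Ape1 and 6962 in the F-test. Without single arrays these counts were 3185 to 4776, 4433 to 6772, 3691 to 4892 and 6438 to 8243, lowest in the first without human APE1 replicate 1 (3185, and 3203 without replicate 2) and in the second without mouse Ape1 replicate 1 (4433). The count of flanking clusters that passed was 0 in human APE1 minus vector control and 1 in human APE1 minus mouse Ape1 and the F-test without any single array, and 1 to 2 in mouse Ape1 minus vector control, where Pnp was added without vector control replicate 1. Of 354 refits of single differences, 353 kept their side of the threshold, and 18 small differences that did not pass had the other sign. Of 24 differences from the authors' means, 10 moved by more than 1 SD. Refits of named genes outside the set were added after seeing the data, and 33 of 48 such calls held in all 15 refits. Dim signal limits Ccnb1ip1 and Rnase4, which the dim filter removes, so they had no value there.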
